A study of Mus musculus with 24 samples.

Results

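Whole eyes of mice kept under long warm days (LW) or short cold days (SC) were compared at the times of day when the lights were off under both conditions. These are the 8 of 24 RNA-seq libraries whose labels give 2 or 22 h after midnight, 4 from LW and 4 from SC, with 2 eyes for each condition and time. All mice were male CBA/N mice, 10 weeks old at the start, and stayed in their condition for 4 weeks. LW mice had 16 h of light and 8 h of darkness at 27 °C, and SC mice had 8 h of light and 16 h of darkness at 10 °C. Day length and temperature differed together and cannot be told apart. The lights had gone off later in the day under LW, so the time already spent in darkness also differed between the conditions and cannot be told apart from them. Nothing in the labels tells if both eyes of a group belonged to 1 animal, and the p-values therefore cover the variation among the collected eyes only.

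The eye holds its own clock, its own light receptors and a dopamine system that follows light. Illumination and the clock reach the genome of retinal cells through cAMP, calcium and the kinases they act on, and among the first genes to respond are the immediate early genes, which code for transcription factors such as EGR1 and FOS and need no new protein for their induction. Many of them carry the cAMP response element (CRE), the site of the transcription factor CREB. A whole eye also holds lens, cornea, conjunctiva, pigment epithelium and the muscle left on the globe, and in such bulk tissue fewer cells of a type and less RNA per cell cannot be told apart.

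The 4 LW libraries held 20106128 to 27510363 expected counts and the 4 SC libraries 22645856 to 28447184. Values below are normalised counts, that is, expected counts scaled by TMM to a common library size, with factors of 0.9831 to 1.005. Markers of the retina (Gnat1, 174000 to 198000), lens (Cryaa, 305000 to 386000), corneal epithelium (Krt12, 85800 to 117000) and pigment epithelium (Rpe65, 3680 to 4650) were present in all 8 eyes, and the liver marker Alb reached at most 4 raw counts. Muscle was present in every eye (Ckm, 5310 to 8550), as was blood (Hba-a1, 96.4 to 441). The 2 eyes of LW at 22 h differed from each other more than those of the other groups, with a chi-square of 8.64 per gene against 4.78 to 5.69. The lit times at 6, 10, 14 and 18 h are used only for comparison, and among them replicate 2 of SC at 6 h and replicate 2 of SC at 10 h held transcripts of liver (1538 and 201 raw counts of Alb, at most 8 in the other libraries).

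Of 15900 genes tested, 309 (1.94%) differed between LW and SC over both times by limma at an adjusted p under 0.05, 151 of them higher (0.95%) and 158 lower (0.994%) under LW. Scaling by library size alone gave 117 higher and 218 lower. The median absolute log2 difference of the 309 genes was 0.332 and that of all genes 0.0902, so most of the called differences were small, and only 13 reached a log2 difference of 1, 11 higher and 2 lower under LW. In 261 of the 309 genes the 4 LW eyes did not overlap the 4 SC eyes, against 9.31% of all genes, and in 307 they did not overlap within either time and lay in the same direction, against 14.9% of all genes. The same eyes chose the 309 genes, so these counts are a description and lend the calls no further weight. Called genes remained called in every one of the 17 other settings in 69 cases, 22 higher and 47 lower. The count itself rested on single eyes: it was 142 and 116 without replicates 1 and 2 of SC at 2 h, 94 without replicate 2 of LW at 2 h, 170 and 93 without replicates 1 and 2 of SC at 22 h, 1114 without replicate 1 of LW at 22 h and 152 without its replicate 2.

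**Figure D1:**
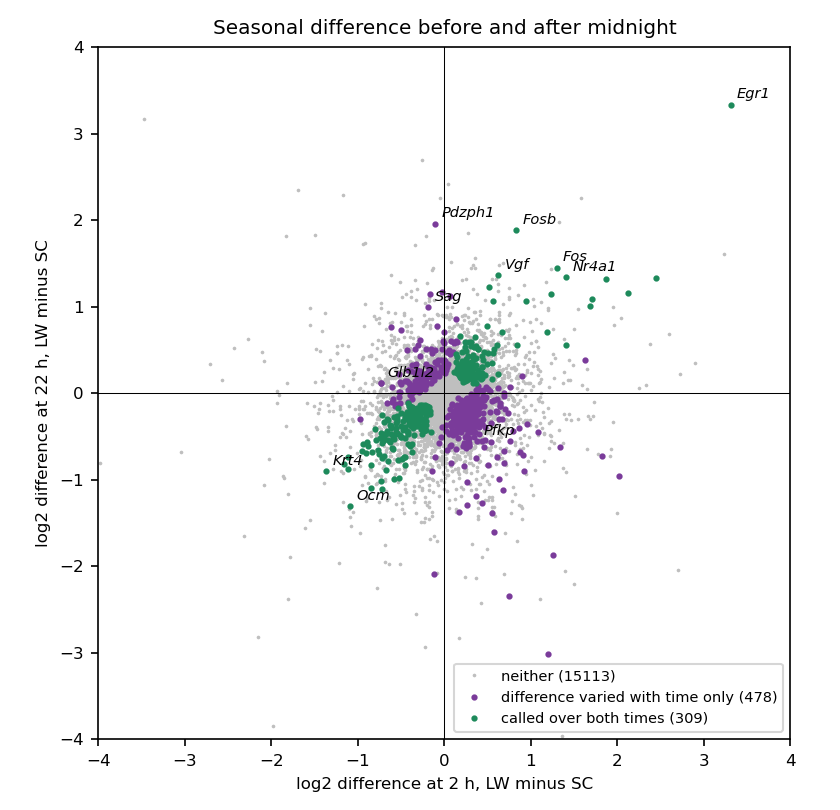
Each point is a gene, with its log2 difference between LW and SC at 2 h on the horizontal axis and at 22 h on the vertical axis. The 309 genes called over both times (green) lie along the rising diagonal with Egr1 at the far end, and the 478 genes whose difference varied with time only (purple) lie mostly away from it. The fit behind the green genes counts a change between the times as spread. Their place near the diagonal therefore follows in part from the fit. 4 genes lie outside the axes, which end at 4.

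Egr1 showed the greatest difference of the called genes. The 4 SC eyes had 378 and 470 normalised counts at 2 h and 1190 and 1460 at 22 h. The LW eyes had 4190 and 4190 at 2 h and 11300 and 15600 at 22 h. Every LW eye was above every SC eye, and within each condition 22 h was above 2 h. The log2 difference was 3.32 (SE 0.12, 95% interval 3.05 to 3.59, limma adjusted p = 1.1e-05), a 10.0-fold difference, and it was 3.31 at 2 h and 3.33 at 22 h. At the other 4 times the group means of Egr1 lay between 523 (SC at 6 h) and 3180 (SC at 18 h), below all 4 LW eyes collected in darkness. The lights were already off under SC at 18 h, where the 2 eyes had 1770 and 4600.

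Nr4a1, Fos and Fosb moved with Egr1. Nr4a1, an orphan nuclear receptor induced by cAMP and activity, had 805 and 909 counts at 2 h and 1550 and 1800 at 22 h under SC, and 2230 and 2300 at 2 h and 3760 and 4770 at 22 h under LW. Fos, the partner of JUN in the AP-1 factor, had 371, 568, 910 and 784 under SC and 1170, 1090, 2300 and 2320 under LW, in the same order of eyes. In both genes the 4 LW eyes lay above the 4 SC eyes, and the log2 difference was 1.37 in each (SE 0.08 for Nr4a1 and 0.12 for Fos), or 2.59-fold, with limma adjusted p of 6.3e-06 and 9.4e-04. Fosb, a close relative of Fos, had 67.8, 63.1, 53.6 and 51.5 under SC and 118, 116, 167 and 233 under LW. Its difference was 1.36 (SE 0.21, limma adjusted p = 0.0055), 0.83 at 2 h and 1.89 at 22 h, and the change between the times did not pass the test (adjusted p = 0.071). These 4 genes were called in all 17 other settings.

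Of the 24 immediate early genes tested, 7 rose and none fell under LW in darkness, where 0.95% of all genes rose, and 23 of the 24 differences were positive against 8046 of 15900 genes. Their median was 0.215, and that of all genes was 0.00159. The other 3 were Npas4, Ier2 and Jund. Npas4, a factor that neurons induce on calcium entry, had 89.9 to 119 counts in the SC eyes and 151 to 231 in the LW eyes. Its rise was 0.87 (SE 0.15, limma adjusted p = 0.012, but 0.0634 with a replicate block and 0.0554 without replicate 2 of SC at 22 h). Ier2, a small nuclear protein of the early response, rose by 0.42 (limma adjusted p = 0.036) and Jund, a JUN relative, by 0.26 (limma adjusted p = 0.024), and each lost its call under 7 other settings. Arc, a synaptic early gene (0.55, limma adjusted p = 0.14), did not pass, nor did Jun, Junb or the relatives Egr2 and Egr3, both of low count. Without replicate 2 of SC at 22 h, 4 immediate early genes were called, and 5 without replicate 1 of SC at 2 h, replicate 2 of LW at 2 h, replicate 1 of SC at 22 h or replicate 2 of LW at 22 h.

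The same genes were compared when the lights were on. At 10 and 14 h, lit under both conditions, none of the 24 was called (1.56% of all genes were, 0.729% higher and 0.828% lower), and Egr1 differed by 0.57 (adjusted p = 0.44). The difference in darkness minus that at 10 and 14 h passed the limma test in 5 of 24 (Egr1, Nr4a1, Fos, Fosb and Npas4), all greater in darkness, where 0.723% of all genes were. That count was 3 without replicate 2 of LW at 2 h, replicate 2 of LW at 10 h or either SC eye of 22 h. It was 2.75 for Egr1 (SE 0.40, adjusted p = 0.017) and 1.58 for Nr4a1 (SE 0.11, adjusted p = 1e-06). At 6 and 18 h, lit under LW alone, 1 of the 24 was higher and 5 were lower under LW (1.21% and 2.07% of all genes, 3.28% in all), and the median was -0.126. The difference in darkness was above that at 6 and 18 h in 8 of the 24, and below it in none, where 1.26% of all genes were above and 1.51% differed either way. The 8 became 4 with a replicate block and 9 without the SC eye of 6 h that held liver transcripts. The dark eyes enter both of these comparisons. Without the SC eye of 10 h that held liver transcripts the 5 genes called against 10 and 14 h were again 5 in number.

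**Figure D2:**
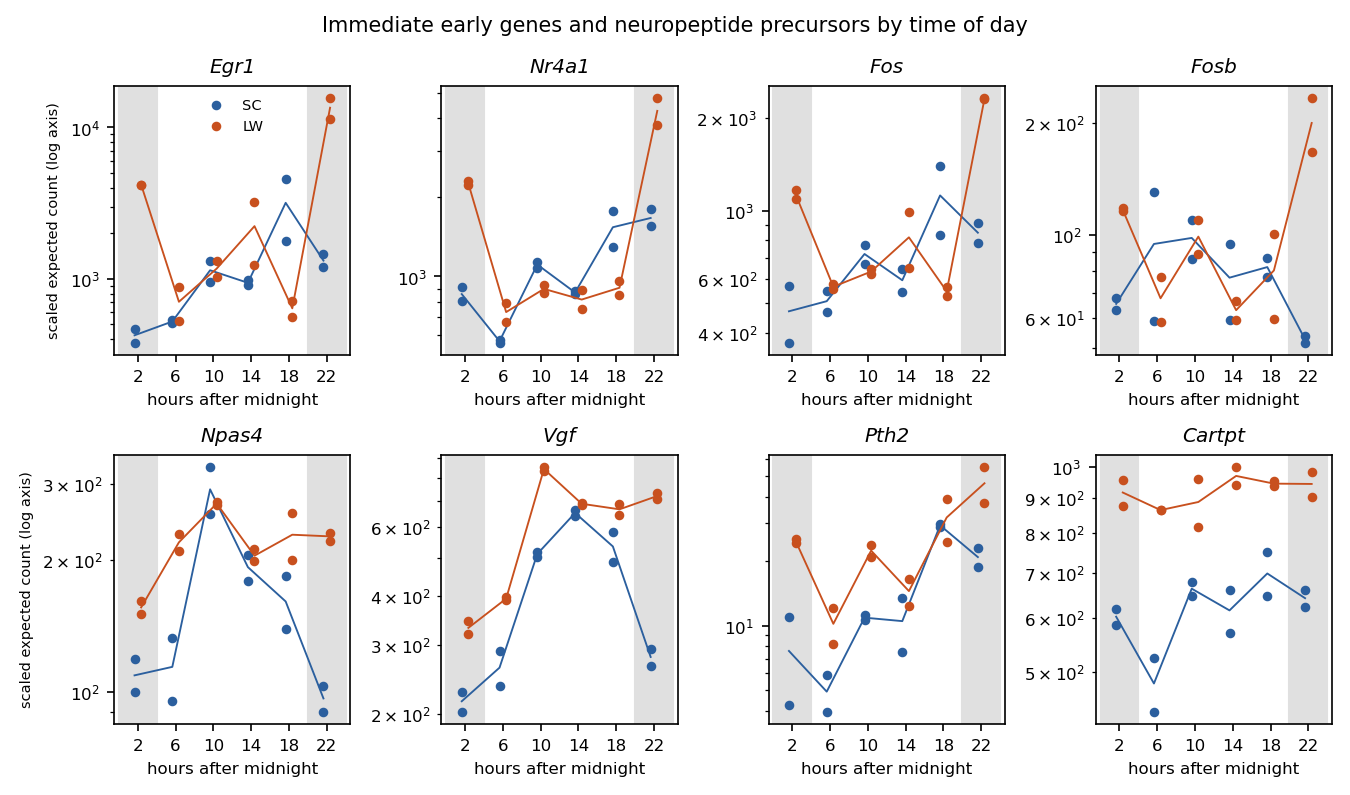
Normalised counts (log axis) of 5 immediate early genes and 3 neuropeptide precursors in all 24 eyes by hours after midnight, with LW in orange, SC in blue and lines through the means of the 2 eyes. The grey bands mark 2 and 22 h, where in all 8 genes every LW eye lies above the SC eyes of the same time.

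The CRE was looked for in the promoters of these genes, since the study examined this element in the Th promoter. RefSeq promoter entries (GRCm38.p6) were matched to 12489 of the 15900 genes tested, and the 250 bases before the start were searched on both strands for the full CRE (TGACGTCA) and for its 5-base core (TGACG, or CGTCA on the other strand, which the full CRE contains). The core was found in 27.9% of all promoters, in 41 of 109 genes that rose under LW (37.6%), in 21 of 122 that fell (17.2%) and in 12 of 17 immediate early genes (70.6%). The full CRE was found in 2.78% of all, in 5 of 109 that rose, in 0 of 122 that fell and in 2 of 17 immediate early genes (11.8%). The E-box of clock factors (CACGTG, both strands) was found in 9.27% of all, 11 of 109, 12 of 122 and 2 of 17 immediate early genes (11.8%). The 17 immediate early genes are those of the 24 tested that had a promoter entry, called or not. A match describes letters and is not a binding site. Shown are the 200 bases before the start of 3 called immediate early genes, of Cartpt, a called peptide gene with the full CRE, and of Th, which holds the same letters and was not called. Fos lies at chr12:85473690-85473889 on the plus strand, Nr4a1 at chr15:101266646-101266845 on the plus strand, Npas4 at chr19:4989972-4990171, Cartpt at chr13:99900684-99900883 and Th at chr7:142899996-142900195 on the minus strand. Capitals mark the core, or the full CRE in Cartpt and Th. All of the promoters shown hold the core, and Egr1 is not among them.
Fos: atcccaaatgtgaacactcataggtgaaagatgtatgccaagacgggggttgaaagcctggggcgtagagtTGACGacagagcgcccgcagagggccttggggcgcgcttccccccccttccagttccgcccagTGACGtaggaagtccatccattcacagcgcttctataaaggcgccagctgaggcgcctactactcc
Nr4a1: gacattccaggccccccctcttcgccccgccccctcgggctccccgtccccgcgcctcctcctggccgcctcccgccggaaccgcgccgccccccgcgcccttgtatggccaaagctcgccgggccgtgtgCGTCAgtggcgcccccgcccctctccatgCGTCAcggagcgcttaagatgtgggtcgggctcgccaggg
Npas4: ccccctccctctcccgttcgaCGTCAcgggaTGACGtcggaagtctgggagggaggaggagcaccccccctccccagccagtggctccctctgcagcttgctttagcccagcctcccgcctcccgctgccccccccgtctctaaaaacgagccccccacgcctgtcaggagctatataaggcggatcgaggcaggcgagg
Cartpt: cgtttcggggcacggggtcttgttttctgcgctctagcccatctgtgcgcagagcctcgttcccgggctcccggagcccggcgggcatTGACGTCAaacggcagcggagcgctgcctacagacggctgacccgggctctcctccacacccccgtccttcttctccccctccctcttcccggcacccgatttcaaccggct
Th: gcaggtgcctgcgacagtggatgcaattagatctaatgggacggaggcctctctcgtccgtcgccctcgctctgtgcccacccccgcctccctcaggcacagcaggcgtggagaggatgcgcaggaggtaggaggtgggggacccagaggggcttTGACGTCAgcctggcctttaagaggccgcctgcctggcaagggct
The core nearest to the start lay 66 bases before it in Fos, 40 in Nr4a1 and 169 in Npas4, and the nearest core of the full CRE 109 bases before it in Cartpt and 42 in Th. The starts are those of the RefSeq entries, which for Nr4a1, Npas4 and Cartpt lie within the outer limits of the gene.

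Secreted peptides were the next group to differ. Cartpt, which codes for the CART neuropeptides of amacrine and ganglion cells, had 619, 586, 623 and 661 counts under SC and 958, 878, 905 and 985 under LW, with no overlap. Its difference of 0.58 (SE 0.06, limma adjusted p = 3.4e-04) was 0.60 at 2 h, 0.56 at 22 h and 0.54 at 10 and 14 h, so it was much the same at all of them. Vgf, a granin-like precursor that neurotrophins and cAMP induce, had 228, 203, 266 and 294 under SC and 345, 320, 732 and 706 under LW. It rose by 0.99 (SE 0.13, limma adjusted p = 0.0043), and by more at 22 h (1.36) than at 2 h (0.62). The limma adjusted p of that change was 0.021, and 0.0636 with a replicate block. The change was 0.655 to 0.794 and did not pass without replicate 1 of SC at 2 h, either replicate of LW at 2 h or replicate 1 of SC at 22 h. The difference in darkness exceeded that at 10 and 14 h by 0.59 in Vgf (adjusted p = 0.0014). Of the 18 retinal neuropeptides and granins tested, these 2 rose (0.95% of all genes did), none fell, and 14 differences were positive, against 8046 of 15900 genes. Without replicate 1 of LW at 22 h, 4 rose and 1 fell. Pth2, which codes for the peptide TIP39, stood on few counts (4.28 to 23.1 under SC and 24.4 to 54.9 under LW) and rose by 1.40 (adjusted p = 0.043), a call that 10 of the 16 other settings in which it was tested did not make. Doc2b, a calcium sensor of vesicle release, rose by 0.48 (adjusted p = 2.2e-04), from 1390 to 1540 counts under SC to 1870 to 2220 under LW.

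Among the other genes with the greatest rise were genes of eye size, lipid and skin biology, most of them at low counts. Prss56, a serine protease gene whose mutations in humans shorten the eye, had 7.98 to 35.8 under SC and 36.7 to 69.7 under LW and rose by 1.64 (SE 0.29, adjusted p = 0.012). Cyp4a12a, a fatty acid hydroxylase, had 78.6, 140, 186 and 119 under SC and 322, 356, 287 and 312 under LW, which is a rise of 1.34 (SE 0.22, adjusted p = 0.022). Cnfn, a protein of the cornified envelope, had 16 to 41.8 under SC and 65.4 to 93.1 under LW and rose by 1.59 (SE 0.25, adjusted p = 0.0055) in these eyes and by 1.30 at 10 and 14 h. Prss56 lost its call without replicate 2 of LW at 2 h (adjusted p = 0.0566) or replicate 2 of SC at 22 h (0.0556), and Cyp4a12a without either LW eye of 2 h (0.0601 and 0.0788), replicate 2 of SC at 22 h (0.0841) or replicate 2 of LW at 22 h (0.0576). Cnfn was called throughout. Of the 7 genes tested in the list of cornified skin and hair, Cnfn rose and Krt75 fell, and their summed level was 597 to 708 in the SC eyes and 591 to 791 in the LW eyes.

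**Figure D3:**
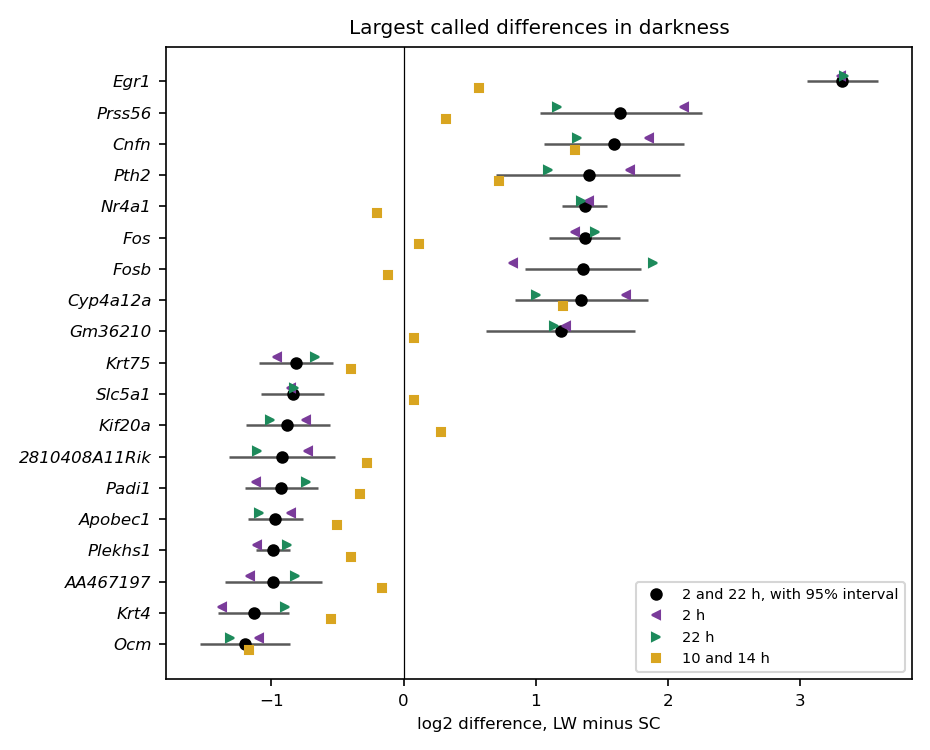
Log2 differences between LW and SC of 19 called genes at either end of the range, over 2 and 22 h with 95% intervals (black), at 2 h (purple), at 22 h (green) and at 10 and 14 h (yellow squares). Egr1 stands apart at 3.32, and the squares of Nr4a1, Fos, Fosb, Slc5a1 and Kif20a lie near 0 or on its other side.

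Plekhs1 and several genes of the ocular surface fell under LW. Plekhs1, a pleckstrin homology domain gene, had the smallest limma p of the genes that fell. It is not on the list of the corneal and conjunctival epithelium used below. Its counts were 1490, 1560, 1430 and 1470 under SC and 702, 708, 765 and 814 under LW. The 2 ranges were far apart, and the difference was -0.99 (SE 0.06, limma adjusted p = 5e-06), 1.99-fold lower, with -1.11 at 2 h, -0.88 at 22 h and -0.40 at 10 and 14 h. Krt4, a keratin of non-cornified surfaces such as the conjunctiva, had 6040, 5480, 6260 and 5700 under SC and 2260, 2200, 2850 and 3610 under LW (-1.13, SE 0.11, adjusted p = 0.0042). Prss27, a serine protease of stratified epithelia, had 1490 to 1780 under SC and 824 to 1020 under LW (-0.76, SE 0.07, adjusted p = 1.9e-04). The SC eyes stayed above the LW eyes in all 3 genes at both times.

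Of the 22 genes of the corneal and conjunctival epithelium tested, 6 fell and none rose, where 0.994% of all genes fell, 21 of 22 differences were negative, and the median was -0.355. The called genes were Krt4, Prss27, Krt15 (-0.50), Krt7 (-0.52), Krt6b (-0.33) and the membrane mucin Muc4 (-0.63), and all 6 were called in each of the 17 other settings. In 12 of the 22 the 4 SC eyes lay above the 4 LW eyes, against 4.79% of all genes. Krt12, the keratin that defines the corneal epithelium, had 108000 to 117000 counts under SC and 85800 to 117000 under LW and was not called (-0.09, adjusted p = 0.59). At 2 h 16 of the 22 fell (2.42% of all genes) with a median of -0.514, and at 22 h 5 fell (2.09%) with a median of -0.132. At 6 and 18 h, lit under LW alone, 10 fell (2.07%) with a median of -0.335, and at 10 and 14 h 3 fell (0.828%) with a median of -0.099. None of the 22 passed the test of the difference in darkness minus that at 6 and 18 h, and 2 passed that of darkness minus 10 and 14 h, both more negative in darkness (0.561%). The change between 2 and 22 h passed the test in 3 genes, all less negative at 22 h (0.943% of all genes changed that way), and Elf3, an epithelial transcription factor, had -0.60 at 2 h and -0.11 at 22 h (adjusted p of the change 0.0040). At 22 h, 2 were called without replicate 1 or replicate 2 of SC at 22 h. The 3 genes that changed became 1 without replicate 1 of SC at 22 h, 5 without either LW eye of 22 h and 8 without replicate 1 of LW at 2 h. The summed level of the list was 384000 to 402000 in the SC eyes, 329000 and 275000 in the LW eyes of 2 h and 376000 and 370000 in those of 22 h.

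Other genes that fell are, like Plekhs1, not on that list. Gsto1, a glutathione transferase of the omega class, had 60600 to 65000 counts under SC and 39500 to 48500 under LW (-0.51, SE 0.05, limma adjusted p = 1.9e-04). Ceacam1, an adhesion molecule of epithelia and immune cells, had 3600 to 4300 and 2270 to 2880 (-0.61, adjusted p = 2.2e-04). Slc5a1, the sodium-glucose cotransporter SGLT1, had 594 to 714 and 288 to 427 (-0.84, adjusted p = 0.0029), and at 10 and 14 h its difference was 0.08. Apobec1, an RNA-editing cytidine deaminase, had 334 to 408 under SC and 173 to 211 under LW (-0.97, adjusted p = 2.2e-04). Ocm, the parvalbumin relative oncomodulin, had 87.8 to 119 and 42.3 to 46.4 (-1.20, SE 0.16, adjusted p = 0.0021), and its difference was -1.17 at 10 and 14 h. Ocm was the only gene called of the 24 of skeletal and extraocular muscle tested (4.17%, beside 1.94% of all genes). The summed level of those 24 genes was 65400 to 97100 in the SC eyes and 66700 to 91500 in the LW eyes.

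Genes of macrophages and microglia were lower under LW in part. Itgam, the integrin alpha chain CD11b, had 2030, 2010, 1870 and 1860 counts under SC and 1340, 1220, 1380 and 1370 under LW, without overlap (-0.55, SE 0.06, limma adjusted p = 2.7e-04). Arg1, the arginine-degrading enzyme, had 933 to 1110 under SC and 560 to 660 under LW (-0.73, SE 0.07, adjusted p = 2.5e-04). Chit1, a chitinase of activated macrophages, had 418 to 487 and 247 to 305 (-0.73, SE 0.08, adjusted p = 5.3e-04). With Lyz2 (-0.45, adjusted p = 0.028, lost in 5 of the settings that leave out an eye), 4 of the 19 genes of the list fell (0.994% of all genes did) and none rose, and 16 differences were negative with a median of -0.121. The defining genes Csf1r (-0.10, adjusted p = 0.40), Cx3cr1 (-0.12, 0.61), Aif1 (-0.18, 0.69), C1qa (-0.07, 0.79) and Ptprc (0.01, 0.99) were not called. The summed level of the list was 9690 to 10100 in the SC eyes and 7870 to 8520 in the LW eyes, and the part of the number of cells in it was not tested. Irf7, an interferon response factor, fell by 0.37 (adjusted p = 0.011, and 0.0509 and 0.0587 without replicate 2 of SC at 2 h or at 22 h), the only called gene of 13 in that list, again beside 0.994% of all genes.

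Kif20a, a kinesin of dividing cells, was among the genes with the greatest fall. A list of G2 and M phase genes and one of S phase genes were therefore added after values had been seen. Kif20a had 242 and 311 counts at 2 h and 192 and 204 at 22 h under SC, and 193, 140, 113 and 83.7 under LW (-0.88, SE 0.14, limma adjusted p = 0.0085, and 0.0527 without replicate 2 of SC at 22 h). Within each time the LW eyes were below the SC eyes, and the 8 eyes overlapped across the times. Of the 52 G2 and M phase genes tested, 8 fell and none rose (0.994% of all genes fell), 46 differences were negative, and the median was -0.353. They were Hmgb2 (-0.50), Top2a (-0.60), Anln, Cdc20, Ckap2, Kif11, Aurka and Cenpa, with differences of -0.50 to -0.79. The summed level of the 52 genes was 42100 to 45500 in the SC eyes and 39000 to 47500 in the LW eyes, so the conditions overlapped. The highest sum was that of replicate 1 of LW at 2 h. Top2a, the topoisomerase of mitotic chromosomes, had 830, 926, 743 and 688 under SC and 743, 547, 458 and 397 under LW (adjusted p = 0.013). The number called was 1 without replicate 2 of LW at 2 h or replicate 2 of SC at 22 h, 2 without replicate 2 of SC at 2 h, 3 without replicate 1 of SC at 2 h, replicate 1 of SC at 22 h or replicate 2 of LW at 22 h, 12 without replicate 1 of LW at 2 h and 14, with 1 that rose, without replicate 1 of LW at 22 h. Of the 42 S phase genes tested, 1 fell (2.38%, beside 0.994% of all genes) and none rose. The 4 SC eyes lay above the 4 LW eyes in 5 of these 42 and in 1 of the 52 G2 and M phase genes, against 4.79% of all genes. The reverse held in 1 S phase gene and in 0 of the G2 and M phase genes, against 4.52%. Lit under both conditions, at 10 and 14 h, 7 of the 42 were called, all lower under LW (0.828% of all genes were). At 10 and 14 h, 28 of the 52 G2 and M phase differences were positive and none was called. At 6 and 18 h 44 of the 52 were negative with a median of -0.196, and 3 were called, all lower (2.07% of all genes were). Of the 52, the difference in darkness minus that at 10 and 14 h passed the test in 3, all more negative in darkness (0.561%), and minus that at 6 and 18 h in none.

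A few chaperone genes rose by small amounts. Hsph1, a cochaperone of the HSP70 family, had 1190, 1190, 1470 and 1330 counts under SC and 1470, 1600, 2100 and 1990 under LW, higher in each LW eye than in the SC eyes of the same time (0.46, SE 0.06, limma adjusted p = 0.0019). Hspb1, the small heat shock protein HSP27, had 4750 to 5000 under SC and 5750 to 6800 under LW (0.35, SE 0.05, adjusted p = 0.0023). Of the 20 heat shock chaperones tested, 4 rose, Hspa4 (0.25) and Hsp90aa1 (0.22) being the others, where 0.95% of all genes rose, none fell and 19 differences were positive, with a median of 0.163. The number called was 2 without replicate 1 of SC at 2 h, replicate 2 of LW at 2 h, replicate 2 of SC at 22 h or replicate 2 of LW at 22 h. The stress-inducible Hspa1a (-0.03) and Hspa1b (0.03) were not called. Of 18 genes of endoplasmic reticulum stress, Hsp90b1 (0.21), Manf (0.28) and Herpud1 (0.21) rose (0.95% of all genes did), a count of 0 without replicate 2 of SC at 2 h or at 22 h, 1 without either LW eye of 2 h, replicate 1 of SC at 2 h, replicate 1 of SC at 22 h or replicate 2 of LW at 22 h. None of 5 cold-inducible RNA-binding genes was called (1.94% of all genes were). Rbm3, the best known of them, had 2630 to 3060 counts under SC and 1930 to 2620 under LW (-0.35, limma adjusted p = 0.075, and 0.0214 and 0.0155 without replicates 1 and 2 of LW at 22 h). In the lens, Lgsn (lengsin, 0.23, adjusted p = 0.019) and Crygs (gamma-S crystallin, 0.25, adjusted p = 0.027) rose, the last being 1 of 16 crystallins tested, 6.25% of them beside 0.95% of all genes. Lgsn lost its call in 7 of the other settings (adjusted p = 0.0503 to 0.0855) and Crygs in 6 (0.0841 to 0.105).

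Vision genes differed little over both times. None of the 7 opsins was called (1.94% of all genes were). Pde6b, the beta subunit of the rod phosphodiesterase, had 28100 to 28700 counts in the SC eyes and 34800, 33000, 37500 and 36900 in the LW eyes (0.32, SE 0.04, limma adjusted p = 0.0018), and at 10 and 14 h its difference was 0.02. It was the only one of 24 rod genes to rise, and Nr2e3, a nuclear receptor of rod identity, fell (-0.48, limma adjusted p = 0.037), a call lost in 6 settings. Called rod genes made up 8.33% of the list, beside 1.94% of all genes. Of 13 cone genes, Pde6h alone was called (7.69%, beside 1.94% of all genes). Pde6h, the inhibitory subunit of the cone phosphodiesterase, fell from 790 to 874 under SC to 596 to 717 under LW (-0.36, SE 0.06, limma adjusted p = 0.012). The adjusted p was 0.0727 with a replicate block, and 0.0539 to 0.0615 without replicate 2 of SC at 2 h, of LW at 2 h or of SC at 22 h.

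Of the 11 genes of dopamine synthesis and handling none was called (1.94% of all genes were). In 10 of them the difference was positive, against 8046 of 15900 genes, with a median of 0.066. Th, the rate-limiting enzyme of dopamine synthesis, had 72.8, 57.8, 56.2 and 72.8 counts under SC and 95.9, 96.8, 109 and 88.5 under LW. The 4 LW eyes lay above the 4 SC eyes, as in 4.52% of all genes. The difference was 0.59 (SE 0.16, 95% interval 0.25 to 0.93) with a limma adjusted p of 0.074, and of 0.0287 where all 24 libraries shared 1 estimate of the spread. Drd4, the dopamine receptor of photoreceptors, had 6080, 6340, 6400 and 6660 under SC and 5670, 5480, 4720 and 4800 under LW (-0.31, SE 0.06, limma adjusted p = 0.016). Drd4 lost this call with a replicate block (adjusted p = 0.0901), without either SC eye of 22 h (0.0552 and 0.0802) or without replicate 2 of LW at 22 h (0.0576). It was lower under LW at the other times too, by more at 6 and 18 h (-1.06, adjusted p = 4.3e-11), where the SC eyes had 3890, 4420, 4420 and 4980 and the LW eyes 2660, 2780, 1710 and 1590, and by -0.20 at 10 and 14 h (adjusted p = 0.0026). Darkness minus 6 and 18 h gave 0.75 for it (SE 0.07). Of the 16 core clock genes, Per2 alone was called, 6.25% of them beside 1.94% of all genes. Per2 had 995 to 1240 counts under SC and 1120, 1140, 1570 and 1590 under LW (0.28, limma adjusted p = 0.041, lost in 7 settings). Per1 had 2020 to 2420 under SC and 2240, 2290, 3200 and 3750 under LW (0.36, adjusted p = 0.076). At 10 and 14 h both had the opposite sign (-0.51 for Per2 and -0.39 for Per1, with adjusted p of 4.3e-06 and 6.7e-05), and the difference in darkness minus that at 10 and 14 h passed the test in 6 of the 16 clock genes, all of them more positive in darkness, where 0.723% of all genes were. The number was 3 without replicate 2 of SC at 22 h and 11 without replicate 1 of LW at 22 h.

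The 2 dark times differed from each other in many genes. At 2 h 822 genes (5.17%) were called, 437 higher (2.75%) and 385 lower, and at 22 h 618 (3.89%), 285 higher (1.79%) and 333 lower, and 136 were called at both, which is 16.5% of the first and 22.0% of the second, 91 in the same and 45 in the opposite direction. The difference itself changed between the times in 483 genes (3.04%), in 431 with opposite signs, and 5 of them were among the 309. It was more positive at 22 h in 150 and more negative in 333. The additive fit behind the 309 counts such a change as spread, so the small overlap follows in part from the fit. With the spread taken from all 24 libraries 960 genes were called over both times, Sag, Guca1b, Pdzph1 and Adcy1 among them. Without replicate 1 of SC at 2 h the 483 became 185, without its replicate 2 216, without replicate 1 of LW at 2 h 259, without replicates 1 and 2 of SC at 22 h 118 and 292, and without replicate 2 of LW at 22 h 1243. The 822 became 179 and 235 without replicates 1 and 2 of SC at 2 h, 383 and 242 without those of LW at 2 h, 545 and 546 without those of SC at 22 h and 1773 and 1777 without those of LW at 22 h. The 618 became 116 and 160 without replicates 1 and 2 of SC at 22 h and 1156 without replicate 1 of LW at 22 h.

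Sag, which codes for the arrestin of rods, changed most clearly. Under SC it had 33300 and 33200 counts at 2 h and 29800 and 28900 at 22 h. Under LW it had 29600 and 28800 at 2 h and 56800 and 59800 at 22 h. Only the LW eyes of 22 h were high, and they were at the level of the LW eyes of 18 h (63700 and 59500), when LW eyes were lit. The log2 difference was -0.19 at 2 h and 0.99 at 22 h (limma adjusted p of the change 2.3e-08). Pdzph1, a gene of PDZ and pleckstrin homology domains, had 1450, 1850, 1400 and 1350 under SC, 1520 and 1520 at 2 h under LW and 5460 and 5240 at 22 h (adjusted p of the change 9.2e-06). Adcy1, a calcium-stimulated adenylyl cyclase, had 6120 to 6350 under SC and 5840, 6000, 11000 and 10200 under LW (1.1e-05), and Guca1b, a calcium sensor of the photoreceptor guanylyl cyclase, had 11600 to 13000 and 10900, 10500, 18500 and 17100 (6.6e-06). In all 4 genes the LW eyes of 22 h lay above the other 6 dark eyes. Of the 24 rod genes, the change passed the test in 9, with 6 more positive (0.943% of all genes) and 3 more negative (2.09%) at 22 h. It passed in 6 without either SC eye of 2 h, in 4 without replicate 1 of SC at 22 h and in 15 without replicate 2 of LW at 22 h.

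Other genes stood out at 2 h. Ankrd52, a subunit of protein phosphatase 6, had 3290 to 3860 counts under SC and 5290, 5060, 3390 and 3530 under LW, with differences of 0.64 at 2 h and -0.15 at 22 h (limma adjusted p of the change 2.8e-05). Glb1l2, a beta-galactosidase relative, had 3250 to 3860 under SC and 2230, 2280, 3660 and 3530 under LW (2.8e-05). Here the LW eyes of 2 h were the ones apart, above the others in Ankrd52 and below them in Glb1l2. Like Sag, Pdzph1, Adcy1 and Guca1b, these genes and Pfkp kept the change in every setting run.

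**Figure D4:**
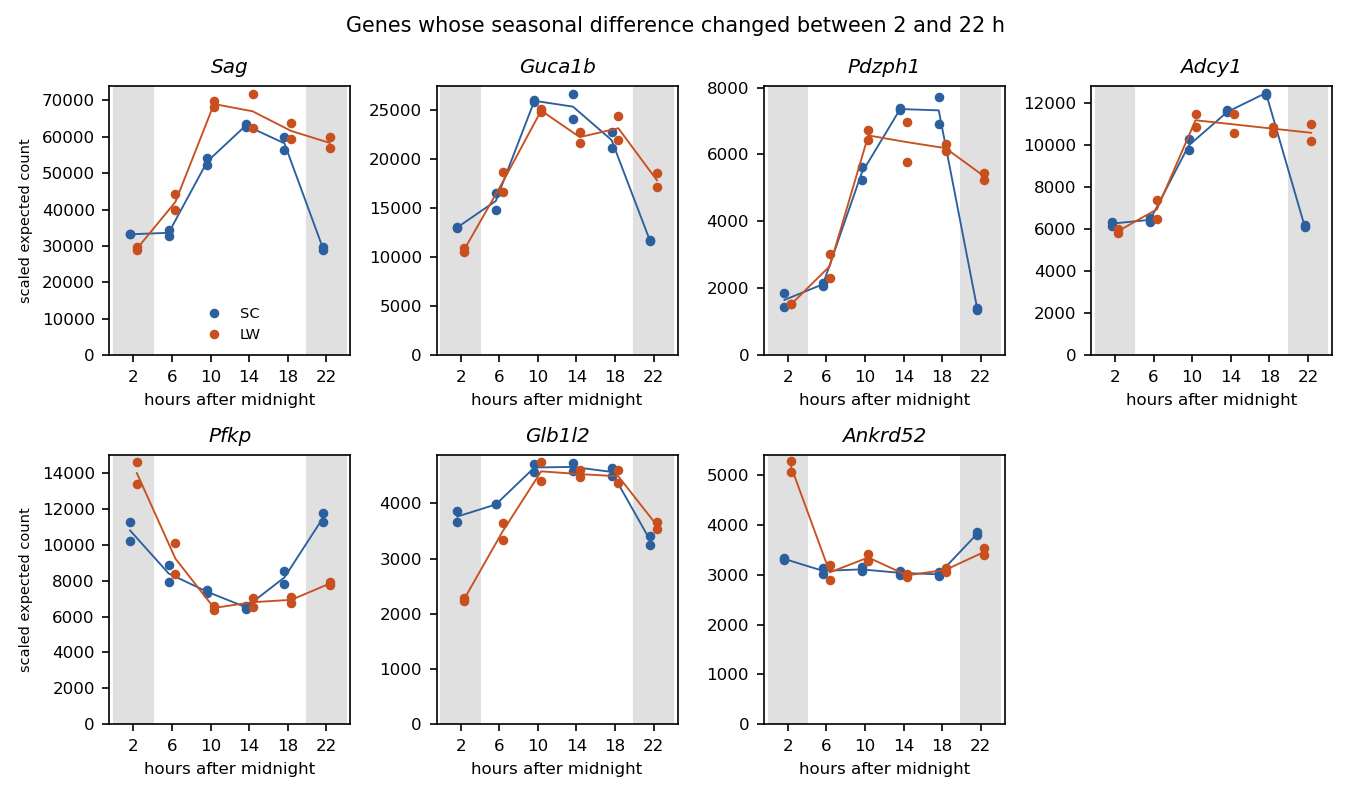
Normalised counts of 7 of the genes with the smallest p for a change of the seasonal difference between 2 and 22 h, in all 24 eyes by hours after midnight, with LW in orange, SC in blue and lines through the means of 2 eyes. At 22 h (right grey band) Sag, Guca1b, Pdzph1 and Adcy1 are higher under LW than under SC, and at 2 h (left grey band) Pfkp and Ankrd52 are highest under LW.

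Glycolysis, on which photoreceptors draw heavily, turned over between the times. Pfkp, a phosphofructokinase, had 10200, 11300, 11800 and 11300 counts under SC, 14600 and 13400 at 2 h under LW and 7740 and 7940 at 22 h, so it was high in the LW eyes of 2 h and low in those of 22 h (0.38 and -0.56, limma adjusted p of the change 1.4e-05). Of the 20 glycolysis genes tested, none was called over both times, and 9 were higher and 1 lower under LW at 2 h (2.75% and 2.42% of all genes). At 22 h 7 were lower (2.09%) and none higher, and in 8 the difference was more negative at 22 h than at 2 h (2.09%). The 8 included Pfkl (0.29 and -0.20), Pgam1 (0.26 and -0.17), Pgk1 (0.23 and -0.11) and Aldoa (0.10 and -0.25). The counts rested on single eyes: at 2 h 1 was higher without replicate 1 of SC, 3 without replicate 2 of LW and 6 without replicate 2 of SC, and at 22 h 1 and 3 were lower without replicates 2 and 1 of SC. The 8 became 4 without replicate 1 of SC at 2 h or at 22 h. Of 22 genes of cholesterol synthesis and uptake, 7 fell at 2 h (2.42% of all genes), Mvk, mevalonate kinase (-0.47), among them, and none was called at 22 h. The 7 became 1 without replicate 1 or replicate 2 of SC at 2 h or replicate 2 of LW at 2 h.

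The 309 genes were also followed at the times when the lights were on. At 10 and 14 h, 241 of them (78.0%) had the same sign, against 59.4% of all genes, and 41 were called, 36 in the same direction. The median difference of the genes higher under LW was 0.283 in darkness and 0.0746 at 10 and 14 h, and that of the genes lower under LW was -0.381 and -0.0817. The difference in darkness itself departed from that at 10 and 14 h in 206 of 16054 genes (1.28%, 0.561% more negative in darkness), 69 of them among the 309. At 6 and 18 h, lit under LW alone, 146 of the 158 lower genes (92.4%) and 89 of the 151 higher genes (58.9%) kept their sign, where 58.4% of all genes had the same sign. The medians there were -0.169 and 0.0658. The count of 206 was 136 without replicate 2 of SC at 2 h, 125 without replicate 2 of LW at 2 h, 117 and 118 without replicates 1 and 2 of LW at 10 h, 115 without replicate 2 of SC at 22 h and 492 without replicate 1 of LW at 22 h. It was 166 without the SC eye of 10 h that held liver transcripts. The differences in darkness chose these genes, so their shrinking elsewhere is a description.

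**Figure D5:**
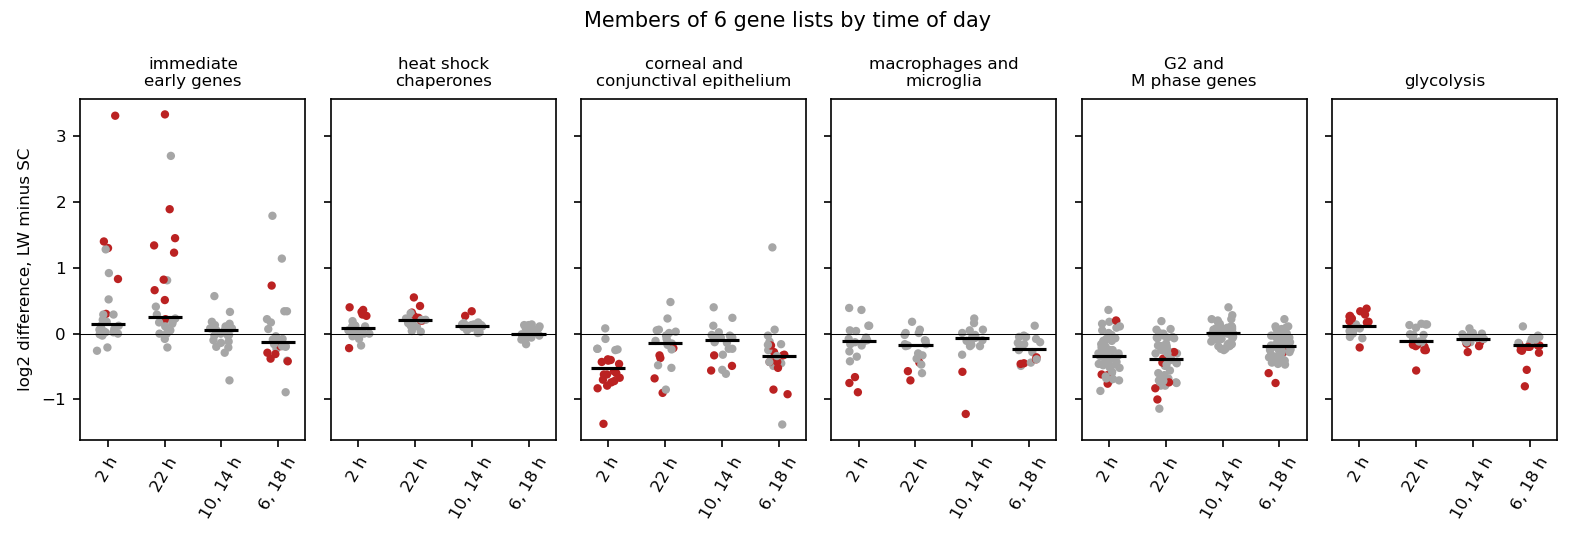
Log2 differences between LW and SC of the tested genes of 6 lists at 2 h, at 22 h, at 10 and 14 h and at 6 and 18 h, with red points for an adjusted p under 0.05 and black bars for the medians. The immediate early genes reach above 3 in darkness alone, the median of the epithelial genes is lowest at 2 h, and that of the glycolysis genes lies above 0 at 2 h and below 0 at the other times.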

How the data were processed

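RNA from whole eyes was sequenced on a HiSeq 4000 after TruSeq Stranded mRNA library preparation. The authors trimmed reads with SOAPnuke, aligned them to GRCm38.p6 with HISAT2 2.0.4 and deposited expected counts per RefSeq gene from RSEM (version not given in the sources used here). The deposited table holds 19018 genes, of which 18891 matched the RefSeq table by ID. It holds no 0, and 43565 cells without a number were read as an expected count of 0. Of the values, 89.6% were whole (tolerance 1e-06) and the rest fractional. All were analysed on a log2 scale.

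Counts were scaled by TMM (trim of 30% and 5%) and tested with limma 3.58.1 (R 4.3.3, trend and robust) on log2(scaled count + 1), two-sided, with Benjamini-Hochberg adjustment over all 15900 genes with at least 10 counts in 2 libraries and 15 in all. A count-model fit planned first was replaced by this one because of the cells without a number. Fold changes on this scale understate those of low genes. Condition and time of day were additive terms for the difference over both times, which left 5 residual degrees of freedom, and means of the condition and time groups gave the differences at single times, their change and the comparison with lit times. "Called" means an adjusted p under 0.05. The procedure was tested on simulated data with the same spread set for every gene and no effect of time. The collected eyes did not have these traits, so that run lends the calls no weight. Depth covers counting error only.

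The members and gene lists were chosen with earlier results of these data known. Named genes were the 10 at either end of the called differences that did not overlap within either time, the 5 smallest p in each direction, up to 4 called members of each list, all members of the short vision, dopamine, clock and cold lists, and the smallest p of the changes with time and light. Markers and these genes were named after their values were seen: Npas4, Ier2, Jund, Jun, Junb, Arc, Egr2, Egr3, Elf3, Krt6b, Krt12, Muc4, the G2 and M phase genes other than Kif20a, Hspa1a, Hspa1b, the macrophage genes that were not called, Pfkl, Pgam1, Pgk1, Aldoa and Mvk. Some genes that the rule takes are not reported here. Alternatives were other scalings and filters, a replicate block, all 24 libraries, each library left out, and, chosen after seeing the data, limma voom and a pseudocount of 10.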

Additional observations from a re-analysis of the deposited data

Results flagged for a closer look

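In each of the following genes the seasonal difference itself differed between sets of times by limma at an adjusted p under 0.05. The difference is log2 LW minus SC, and each value gives how far it moved, which says nothing of its size at either time. The dark eyes are shared by the comparisons.

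The difference at 22 h minus that at 2 h was positive in the photoreceptor and signalling genes Sag (1.18), Guca1b (0.89), Adcy1 (0.86), Pdzph1 (2.07) and Nr2e3 (0.47). It was also positive in Vgf (0.74), Ier2 (0.48), Per1 (0.44), Glb1l2 (0.85), the epithelial factor Elf3 (0.50) and the chaperones Hspa1a (0.38) and Hspa1b (0.42). It was negative in Ankrd52 (-0.79), Drd4 (-0.30) and the glycolysis genes Pfkp (-0.93), Pfkl (-0.49), Pgam1 (-0.43), Aldoa (-0.35) and Pgk1 (-0.34). Some of these changes did not hold in every setting. The limma adjusted p was 0.0632 without a filter, 0.111 with a replicate block and 0.0824 with all 24 libraries for Ier2. It was 0.0552 without a filter for Per1, and 0.104 with a replicate block and 0.0684 with all 24 libraries for Drd4. Ier2, Per1, Drd4, Vgf, Nr2e3 and Pgk1 also lost the change in settings that leave out an eye.

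In darkness the difference was above that at 10 and 14 h in the early genes Egr1 (2.75), Nr4a1 (1.58), Fosb (1.48), Fos (1.25) and Npas4 (0.87). The same held for Vgf (0.59), the clock genes Per2 (0.79) and Per1 (0.75), Pdzph1 (0.90), Rpe65 (0.52), Adcy1 (0.31), Pde6b (0.30), Guca1b (0.29) and Ankrd52 (0.21). It was below that at 10 and 14 h in the mitotic genes Kif20a (-1.16), Ckap2 (-0.94), Kif11 (-0.73) and Top2a (-0.63), and in Nr2e3 (-0.42), Elf3 (-0.30), Glb1l2 (-0.28) and Gsto1 (-0.22).

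The difference in darkness minus that at 6 and 18 h was positive in Egr1 (4.21), Fos (1.78), Fosb (1.59), Nr4a1 (1.56), Ier2 (0.80) and Jund (0.68). It was also positive in Pdzph1 (0.89), Drd4 (0.75, where the difference was -0.31 in darkness and -1.06 at 6 and 18 h), Vgf (0.54), Hspb1 (0.41), Hsph1 (0.41), Manf (0.41), Adcy1 (0.40), Per2 (0.36), Per1 (0.35), Pfkl (0.33), Pgk1 (0.32), Hsp90b1 (0.30) and Ankrd52 (0.23). It was negative in Nr2e3 (-0.90) and Plekhs1 (-0.52).

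A single eye stood apart from the other 3 of its condition in Egr2 (lowest LW eye, 8.04 normalised counts), Hmgb2 (highest LW eye, 1080), Krt15 (lowest SC eye, 17400) and Lyz2 (lowest SC eye, 1420). Chance sets about 1 in 20 groups of 4 apart in this way, and the 4 eyes of a condition come from 2 times of day.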

How the results depend on the processing

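Directions were compared for the named genes only, in the difference over both times and in the called changes from 2 to 22 h. No called direction among these was reversed in any setting run. The count of 309 genes became 960 where all 24 libraries gave the spread, a fit that takes the change between 2 and 22 h out of the spread. Replicate numbers did not pair the eyes (correlation of same-numbered eyes -0.172 to 0.229), and with a replicate block the counts were 90 over both times, 309 at 2 h, 339 at 22 h, 250 for the change between them, 109 for darkness against 10 and 14 h and 73 for darkness against 6 and 18 h. Leaving out 1 library gave 93 to 1114 genes over both times, 179 to 1777 at 2 h, 116 to 1156 at 22 h, 118 to 1243 for the change, 115 to 492 for darkness against 10 and 14 h and 129 to 303 for darkness against 6 and 18 h. A lone eye left in an arm was assumed to vary like the others. The other scalings, filters, voom and the pseudocount of 10 kept each of these counts within 1.5 times. Count-model fits were planned and not run. With 2 eyes a group and 5 residual degrees of freedom, small differences of low genes cannot be resolved.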
